A study of Mus musculus with 12 samples.

Results

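The genes described here are 10 myeloid growth factor receptors and their JAK-STAT mediators, namely Csf1r, Csf2ra, Csf2rb, Csf2rb2, Csf3r, Jak2, Stat3, Stat5a, Stat5b and Socs2. They were taken by gene name from a table of 35999 genes measured by RNA-seq, and all 10 were found. RNA came from LSK cells, sorted bone marrow cells without lineage markers that carry Sca-1 and KIT, a fraction that holds hematopoietic stem cells and multipotent progenitors. There were 12 libraries from 12 mice, 6 labelled WT and 6 labelled FancgKO (called KO here), a label that names a knockout of Fancg, a gene of the Fanconi anemia DNA repair pathway. The labels name no treatment and no age or strain. Every value is a signal, the authors' normalized count per gene and library.

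Colony-stimulating factors act on progenitors through 2 kinds of receptor. CSF1R, the M-CSF receptor, is itself a tyrosine kinase, whereas the G-CSF receptor CSF3R and the GM-CSF receptor, built from an alpha chain (CSF2RA) and a beta chain (CSF2RB), carry no kinase and signal through bound JAK2. JAK2 phosphorylates STAT3 and STAT5, which enter the nucleus and switch on genes such as Socs2, whose product is a feedback inhibitor of cytokine receptor signaling. The mouse has a second beta chain gene, Csf2rb2, whose product serves the IL-3 receptor.

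Csf2rb and Csf2rb2, and likewise Stat5a and Stat5b, are closely related neighbours, and the letters show how far reads can tell them apart. Csf2rb lies on chromosome 15 from 78325752 to 78353847 on the plus strand (ENSMUSG00000071713.6) and Csf2rb2 from 78282507 to 78305721 on the minus strand (ENSMUSG00000071714.7), in GENCODE M21 on GRCm38. The first 90 coding bases of their longest coding transcripts, from the start codon, differ at 3 positions, which are in capitals.
Csf2rb: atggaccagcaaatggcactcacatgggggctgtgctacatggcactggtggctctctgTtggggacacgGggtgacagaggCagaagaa
Csf2rb2: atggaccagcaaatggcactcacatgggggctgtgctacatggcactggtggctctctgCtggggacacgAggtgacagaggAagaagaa
Over all coding transcripts of each gene, 1369 stretches of 31 bases occur in both, which is 26.2% of those of Csf2rb and 29.0% of those of Csf2rb2. A read that lies inside such a stretch fits either gene, so the split of signal between Csf2rb and Csf2rb2 is less certain than their sum.

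Stat5a lies on chromosome 11 from 100859351 to 100885169 on the plus strand (ENSMUSG00000004043.14) and Stat5b from 100780731 to 100850724 on the minus strand (ENSMUSG00000020919.11). Their first 90 coding bases differ at 16 positions, again in capitals.
Stat5a: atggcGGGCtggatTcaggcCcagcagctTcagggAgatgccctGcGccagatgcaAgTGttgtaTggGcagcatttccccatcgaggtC
Stat5b: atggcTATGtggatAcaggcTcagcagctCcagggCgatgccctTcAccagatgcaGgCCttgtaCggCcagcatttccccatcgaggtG
They share 836 stretches of 31 bases, 20.2% of those of Stat5a and 15.2% of those of Stat5b. The end of Stat5a also overlaps the end of Stat3 on the opposite strand by 72 exon bases, 1.01% of the exon bases of Stat5a.

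Promoters were read from RefSeq (GRCm38.p6), from 250 bases before to 50 bases after a transcript start. The table used held 9 promoters for 7 of the 10 genes. They were searched on both strands for GAGGAA, the core of sites for ETS factors such as PU.1, and for TTCNNNGAA, the STAT half-site pair. The promoters of the receptor genes with the highest and the lowest level per length are shown, with matches in capitals. Csf3r is given for chr4:126024409-126024708 on the plus strand and Csf2rb2 for chr15:78305672-78305971 on the minus strand.
Csf3r: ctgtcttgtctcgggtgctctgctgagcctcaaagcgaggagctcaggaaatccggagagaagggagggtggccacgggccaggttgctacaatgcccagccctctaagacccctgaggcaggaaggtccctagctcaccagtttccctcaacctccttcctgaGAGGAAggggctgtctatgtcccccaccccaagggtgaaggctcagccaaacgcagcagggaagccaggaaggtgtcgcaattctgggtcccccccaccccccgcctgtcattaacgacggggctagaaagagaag
Csf2rb2: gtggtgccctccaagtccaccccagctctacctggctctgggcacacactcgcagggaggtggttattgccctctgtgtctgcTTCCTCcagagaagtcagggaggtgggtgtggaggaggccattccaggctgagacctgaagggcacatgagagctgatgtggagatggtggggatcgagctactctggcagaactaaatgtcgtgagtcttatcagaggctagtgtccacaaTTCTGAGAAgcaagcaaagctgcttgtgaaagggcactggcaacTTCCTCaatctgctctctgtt
Csf3r held 1 match to GAGGAA and 0 to TTCNNNGAA, and Csf2rb2 held 2 and 1. Among all 32851 promoters of this length, 28.3% held at least 1 match to GAGGAA and 8.30% at least 1 to TTCNNNGAA. The share with 2 or more matches was not computed. These matches only describe the windows, and binding was not tested.

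The libraries summed to a signal of 1576081 to 2672915, or about 1235110 to 2471413 reads, and Lars2 took 15.6% to 36.2% of a library. Fancg (chromosome 4, 43002343 to 43010506) had a signal of 10.3 ± 6.96 (SD, n = 6) under the WT label and 8.53 ± 4.18 (SD, n = 6) under the KO label and did not separate them (two-sided exact permutation test, p = 0.636), so every direction below is given between labels. Whether the allele leaves the transcript in place is not given in the sources used here. WT replicate 3 and KO replicate 7 stood apart by a low summed signal of Ddx3y, Eif2s3y, Kdm5d and Uty, 26.6 and 49.7 against at least 189 elsewhere, and KO replicate 7 was the shallowest library. Of 10 LSK markers 9 had a mean signal of 10 or more and 1 was below that. Kit, Cd34, Flt3 and Meis1 among them were abundant. Ly6a, which encodes Sca-1, was low (11.5 under the WT label and 10.1 under the KO label). Of the markers of other cells 8 of 12 lymphoid, 7 of 16 granulocyte and monocyte and 5 of 12 erythroid and megakaryocyte genes had a mean signal under 2, among them Cd3e, Pax5, Ltf and Camp. Others of these lists were abundant, with means of 683 for Mpo, 107 for Prtn3, 102 for Ctsg and 84.4 for Elane, and of 222 for Dntt and 124 for Ebf1, genes also known from primed progenitors.

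The libraries also split by replicate number. Fos, an immediate early gene among the STAT targets, had a signal of 12.3 to 40.7 in numbers 2 to 4 and of 229 to 378 in numbers 5 to 7, in both genotypes, which hold 3 libraries each on either side. The labels do not say what the numbers stand for. Differences of the 10 genes are given within both sets further on, as values with no test.

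Per kilobase of the longest coding transcript, which allows levels of different genes to be set side by side, the 10 genes fell into groups. Stat5b had the highest level (37.7 ± 7.90 signal per kilobase, SD, n = 12), followed by Stat5a (31.3 ± 4.25), Csf3r (30.8 ± 8.07) and Jak2 (26.0 ± 4.29). The ranges of these 4 overlapped one another over the 12 libraries, so their order is within the spread. Csf2ra (7.74 ± 3.79), Stat3 (5.75 ± 1.93), Csf2rb (4.69 ± 1.63) and Csf1r (4.67 ± 3.54) formed a lower, again overlapping set. The highest library of this set, 18.6 for Csf2ra, was below the lowest library of the upper 4, 18.8 for Jak2. Csf2rb2 (1.74 ± 1.197) and Socs2 (1.16 ± 1.06) were lowest, and Socs2 was listed at 0 in 2 libraries.

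**Figure D1:**
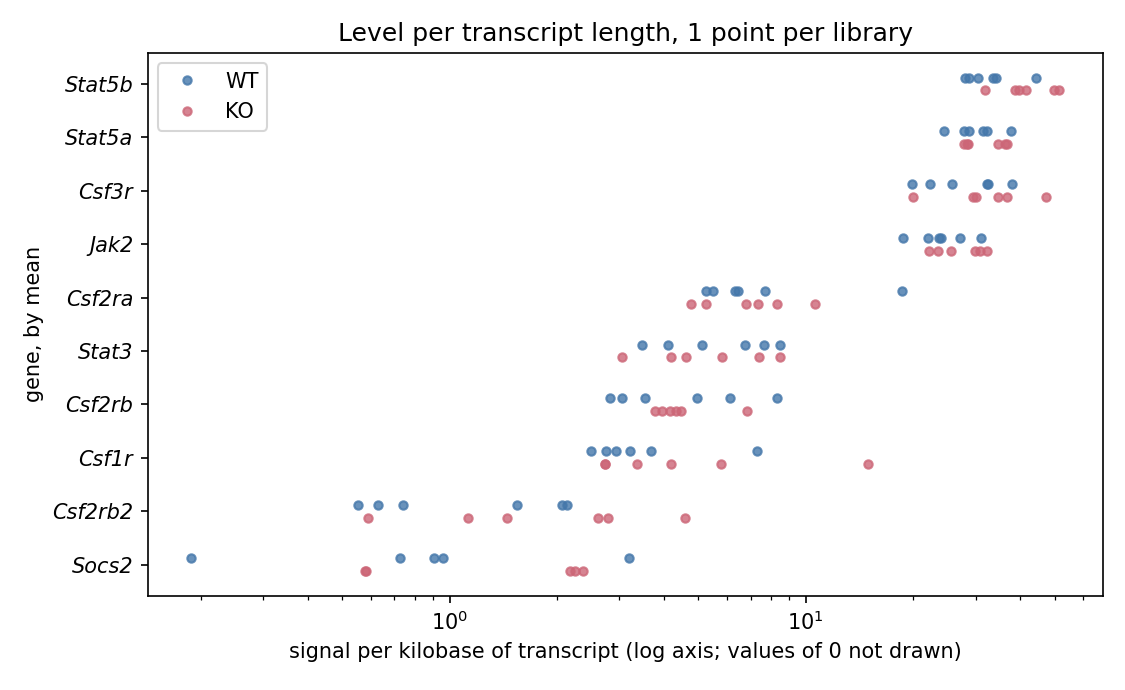
Signal per kilobase of the longest coding transcript (log axis) for the 10 genes, 1 point per library, WT in blue and KO in red. Stat5b, Stat5a, Csf3r and Jak2 lie at 18.8 or above in all 12 libraries, and the other genes lie below that.

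Levels did not separate the genotypes for any of the 10 genes. Stat5b was the 1 gene with an unadjusted p under 0.05, and it was higher in the libraries labelled KO. The test was limma on log2(signal + 1), a scale that understates changes of low genes. It covered 8887 genes whose signal averaged 10 or more over the libraries, and 8 of the 10 genes passed that filter. Of all genes tested, 3.67% had an unadjusted p under 0.05 in either direction and 1.98% were so and higher under the KO label, beside 1 of the 8 genes here. In limma each of the 8 had an adjusted p of 0.9996 (Benjamini-Hochberg), so no change was called, and 0 of all genes tested passed. The groups overlapped for 10 of the 10 genes, and over all genes tested 0.09% had groups that did not overlap. Among the 8 genes, 6 had a positive and 2 a negative difference, beside 4507 and 4380 over all genes tested. Their median was 0.12 against 0.0031 over all genes tested. In bulk RNA of sorted cells, fewer cells that express a gene and less RNA of it per cell cannot be told apart.

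**Figure D2:**
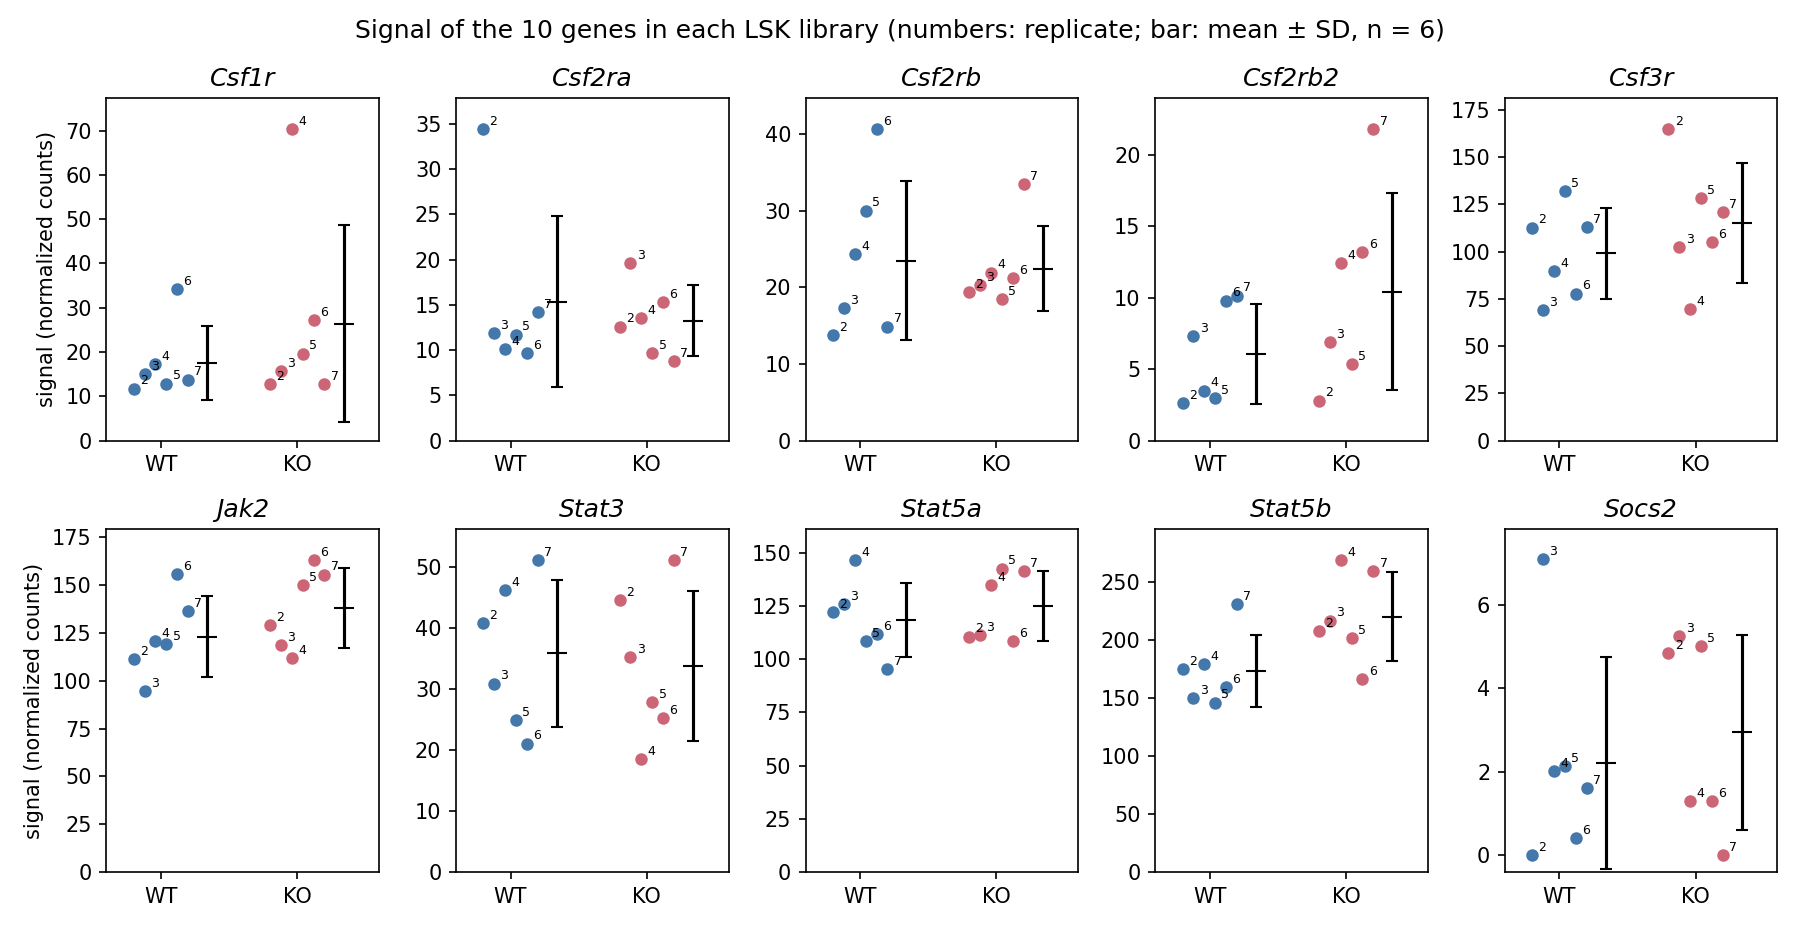
Signal (normalized counts, linear axes) of the 10 genes in the 6 WT and 6 KO libraries, with replicate numbers beside the points and the mean ± SD as bars. The points of both genotypes overlap in every panel, and Csf1r (70.3 in KO replicate 4) and Csf2ra (34.4 in WT replicate 2) each have 1 library far above the rest.

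Among the receptors, Csf3r was the most abundant. This gene, which encodes the receptor for G-CSF, the factor that drives granulocyte production, lies on chromosome 4 from 126024550 to 126044440 (ENSMUSG00000028859.14). Its signal ran from 69.2 through a median of 101 to 132 in the libraries labelled WT and from 69.6 through 113 to 165 in those labelled KO. Most libraries of both labels lay in the same span, with KO replicate 2 alone above the highest WT library. The difference was 0.20 on the log2 scale (95% interval -0.23 to 0.64, exact permutation p = 0.370). It was 0.092 without KO replicate 2, 0.11 without WT replicate 3, 0.34 without KO replicate 4 and 0.086 without both WT replicate 3 and KO replicate 7.

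Csf1r, the receptor that M-CSF uses to direct cells to monocytes and macrophages, lies on chromosome 18 from 61100598 to 61132149 (ENSMUSG00000024621.16). Its signal ran from 11.8 through 14.4 to 34.2 under the WT label and from 12.8 through 17.7 to 70.3 under the KO label. The highest value of each label stood far from the other 5, in WT replicate 6 and in KO replicate 4. The difference of 0.38 (95% interval -0.42 to 1.18, exact permutation p = 0.435) came to 0.050 without KO replicate 4 and to 0.59 without WT replicate 6. In WT replicate 6 the summed signal of 16 granulocyte and monocyte markers was 2422, above the 477 to 1244 of the other WT libraries. In KO replicate 4 that sum was 870, inside the span of the other KO libraries (596 to 2639), while that of 12 lymphoid markers was 718, above their span (127 to 426), and the part of these in the value of Csf1r was not tested. Exons of Csf1r share 873 bases with Hmgxb3 on the opposite strand, 15.1% of its exon bases, and Hmgxb3 had a signal of 87.3 in KO replicate 4, inside the 79.2 to 127 of the KO libraries. The strand setting of the quantification is not given in the sources used here, so reads of this overlap could belong to either gene.

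Csf2ra, the alpha chain that binds GM-CSF, lies on chromosome 19 from 61223957 to 61228429 (ENSMUSG00000059326.7). Its signal ran from 9.71 through 11.8 to 34.4 under the WT label and from 8.79 through 13.1 to 19.6 under the KO label. Apart from WT replicate 2, which held the highest value, all libraries lay below 20. The difference was -0.10 (95% interval -0.75 to 0.55, exact permutation p = 0.797), and without WT replicate 2 it was 0.15, so its direction rested on that library.

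The shared beta chain gene Csf2rb, which GM-CSF, IL-3 and IL-5 receptors use, had a signal from 13.8 through 20.8 to 40.7 under the WT label and from 18.5 through 20.8 to 33.5 under the KO label. The medians were alike and 5 of the 6 KO libraries lay between 18.5 and 21.9. The difference was 0.012 (95% interval -0.54 to 0.57, exact permutation p = 0.965), and its sign changed with other scalings. It was -0.11 without WT replicate 2, -0.051 without WT replicate 3, -0.093 without WT replicate 7 and -0.11 without KO replicate 7.

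Csf2rb2 had a mean signal of 8.24, below the filter, which corresponds to about 2.17 to 15.9 reads in a library. It ran from 2.62 through 5.41 to 10.1 under the WT label and from 2.80 through 9.65 to 21.8 under the KO label. The 3 highest values, 21.8, 13.2 and 12.4, were in libraries labelled KO, and the lowest values of both labels were close. The difference was 0.61 (exact permutation p = 0.234), and it was 0.36 without KO replicate 7 and 0.88 without KO replicate 2.

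Because these neighbours may trade reads, they were also summed. Csf2rb and Csf2rb2 together had a signal of 29.6 ± 11.6 (SD, n = 6) under the WT label and 32.9 ± 12.1 (SD, n = 6) under the KO label, a difference of 0.16 on the log2 scale. This difference rested on single libraries, since it was -0.00025 without KO replicate 7, 0.014 without WT replicate 2, 0.26 without KO replicate 2 and 0.33 without WT replicate 6. Csf2rb held 78.8% ± 11.8 of the sum under the WT label and 70.9% ± 10.7 under the KO label. The shares overlapped, from 59.5% to 90.9% and from 60.6% to 87.4%. With a difference of 7.86 percentage points inside 1 SD, the balance of the beta chains did not part the genotypes.

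**Figure D3:**
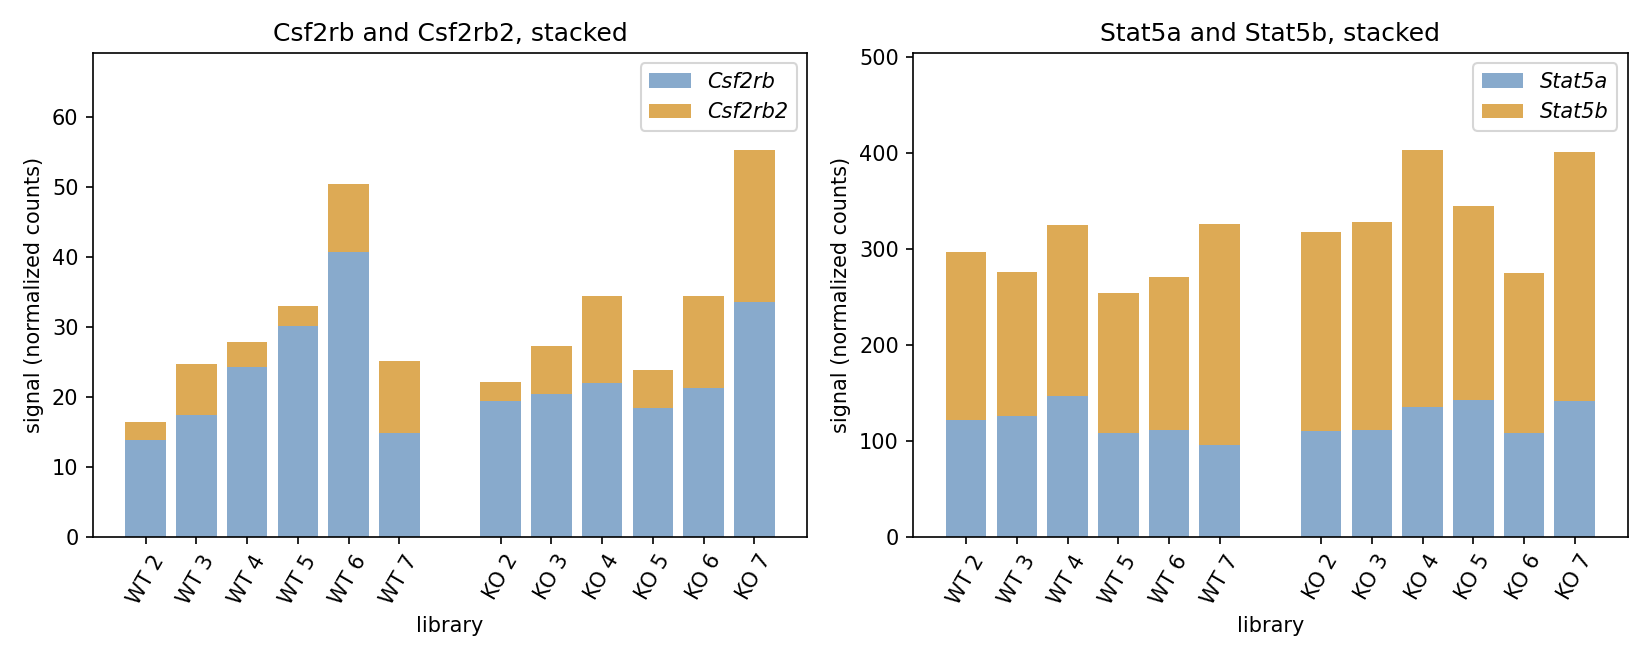
Stacked signal (normalized counts, axes from 0) of Csf2rb with Csf2rb2 and of Stat5a with Stat5b in each of the 12 libraries. The sum of the beta chain genes reaches 50.5 in WT replicate 6 and 55.3 in KO replicate 7, and the sum of the STAT5 genes is highest in KO replicates 4 (403) and 7 (401).

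Jak2, the kinase bound to the receptors for GM-CSF, IL-3, erythropoietin and thrombopoietin, lies on chromosome 19 from 29251828 to 29313080 (ENSMUSG00000024789.13). Its signal ran from 94.7 through 120 to 156 under the WT label and from 112 through 140 to 163 under the KO label. The spans overlapped for most of their length, with WT replicates 2 and 3 below every KO library. The difference was 0.17 (95% interval -0.15 to 0.49, exact permutation p = 0.242), and it was 0.096 without WT replicate 3 and 0.059 without both that library and KO replicate 7.

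Stat5b, which with Stat5a carries the signal of GM-CSF, IL-3 and thrombopoietin receptors, ran from 146 through 167 to 231 under the WT label and from 166 through 212 to 268 under the KO label. The value was at least 202 in 5 of the 6 KO libraries and at most 179 in 5 of the 6 WT libraries, with WT replicate 7 (231) and KO replicate 6 (166) on the other side. The mean was 173 ± 31.03 (SD, n = 6) under the WT label and 220 ± 38.2 (SD, n = 6) under the KO label. The difference was 0.34 on the log2 scale (95% interval 0.018 to 0.67, exact permutation p = 0.043), with an unadjusted p of 0.040 from limma, rank 253 by p among the genes tested, and an adjusted p = 0.9996. The unadjusted limma p, not an exact one, was above 0.05 in 8 of the 12 fits that each left out 1 library, namely without WT replicates 2 (p = 0.054), 3 (0.080), 4 (0.051), 5 (0.090) or 6 (0.069) and without KO replicates 3 (0.056), 4 (0.092) or 7 (0.087). Without both WT replicate 3 and KO replicate 7 the difference was 0.25 (unadjusted p = 0.153 and adjusted p above 0.05 from limma, exact test not run), and it was 0.34 with p = 0.061 without the trend.

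Stat5a had a signal from 95.3 through 117 to 146 under the WT label and from 108 through 123 to 143 under the KO label. The WT span enclosed the KO span. The difference was 0.080 (95% interval -0.22 to 0.37, exact permutation p = 0.513). It was 0.021 without WT replicate 7, 0.040 without KO replicate 5, 0.042 without KO replicate 7 and 0.14 without WT replicate 4. Together Stat5a and Stat5b had a signal of 291 ± 29.7 (SD, n = 6) under the WT label and 345 ± 49.96 (SD, n = 6) under the KO label, a difference of 0.24 with overlapping groups. Stat5a held 40.8% ± 5.97 (SD, n = 6) of this sum under the WT label and 36.4% ± 3.26 (SD, n = 6) under the KO label. This is a difference of -4.43 percentage points, and -6.74 without WT replicate 7. The shares overlapped, from 29.3% to 45.6% and from 33.5% to 41.4%. The overlap rested on WT replicate 7 (29.3%) and KO replicate 5 (41.4%), since the other WT libraries held 41.2% to 45.6%. The shares were not tested.

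Stat3, the mediator of G-CSF and IL-6 receptor signals, lies on chromosome 11 from 100885098 to 100939540 (ENSMUSG00000004040.16). It ran from 21.03 through 35.8 to 51.0 under the WT label and from 18.4 through 31.5 to 51.0 under the KO label. The spans nearly coincided. The difference was -0.092 (95% interval -0.67 to 0.48, exact permutation p = 0.749), and it was 0.059 without KO replicate 4 and 0.021 without WT replicate 7.

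Socs2, a target of STAT5 and an inhibitor of cytokine receptors, lies on chromosome 10 from 95385362 to 95417180 (ENSMUSG00000020027.18). It was near the limit of detection, with 0 to about 6.28 reads in a library. Its signal ran from 0 through 1.81 to 7.11 under the WT label and from 0 through 3.07 to 5.25 under the KO label, with a library at 0 in each. The difference was 0.34 (exact permutation p = 0.565). It was 0.067 without WT replicate 2 and 0.68 without KO replicate 7. Without both WT replicate 3 and KO replicate 7 it was 1.01 (exact permutation p = 0.079). At this depth no difference between the genotypes was detected.

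**Figure D4:**
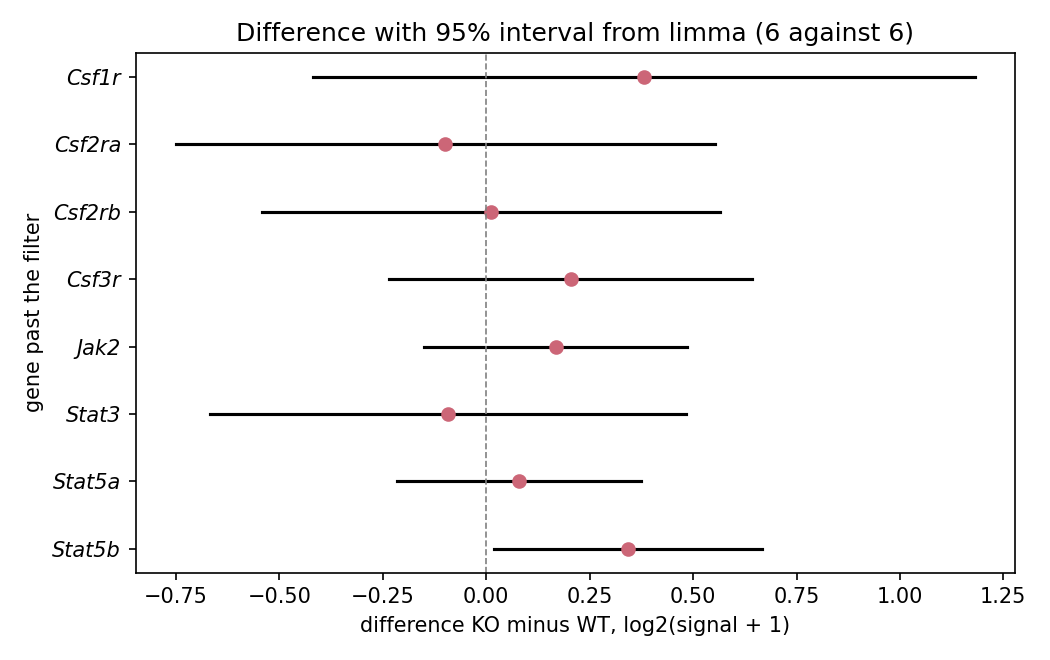
Difference KO minus WT on the log2(signal + 1) scale for the 8 genes past the filter, with 95% intervals from limma (6 against 6 libraries). The interval of Stat5b (0.018 to 0.67) lies above 0 and the other 7 include it, before any adjustment for the number of genes tested.

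Within replicate numbers 2 to 4 and within 5 to 7, with 3 libraries of each label, the differences of several genes had opposite signs. They were 0.18 and -0.15 for Csf2rb, -0.32 and 0.14 for Stat3 and -0.14 and 0.30 for Stat5a. Stat5b had 0.45 and 0.23, Jak2 0.14 and 0.19, Csf3r 0.25 and 0.16, and Csf1r 0.71 and 0.050. Csf2ra had -0.11 and -0.093, Csf2rb2 0.52 and 0.70 and Socs2 0.59 and 0.084. With a term for this split, chosen after seeing the data, the unadjusted limma p of Stat5b was 0.040, the exact test having no such term.

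Across the 12 libraries the receptors did not vary as a block. Pearson's r of log2(signal + 1) was -0.63 between Csf1r and Csf3r, -0.63 between Csf2ra and Csf2rb and -0.77 between Csf1r and Stat3. Single libraries weigh on these values. KO replicate 4 held the highest Csf1r (70.3) and the lowest Stat3 (18.4), and WT replicate 2 the highest Csf2ra (34.4) and the lowest Csf2rb (13.8). No r was computed without these libraries. The highest r among the 45 pairs of these genes was 0.48, between Csf3r and Stat3. The genes most like Stat5b over the 12 libraries were Ubr2 (r 0.88), Mxd3 (r 0.88) and Zfp407 (r 0.83). They were picked as the highest r among all genes tested, and r includes any difference between the labels. How high r runs among unrelated genes was not tested. All these r values are descriptions over 12 libraries that share scaling and depth.

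The wider pathway was followed through 93 listed genes. Of these, 65 were tested, 0 were higher and 2 were lower with an unadjusted p under 0.05 in the libraries labelled KO (3.08%, near the 3.67% of all genes), and 0 had an adjusted p under 0.05. By the exact permutation test 2 other genes of the 65 had an unadjusted p under 0.05, Jak1 and Cbfb, named after their values were seen. The share of all genes tested that pass the exact test was not computed, so nothing is read from this count. None of the 11 ligand genes passed the filter. Csf2, Csf3, Il3 and Thpo were listed at 0 in the 12 libraries, and Csf1, with a mean signal of 9.38, was the most abundant ligand gene.

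Of 20 other cytokine receptor genes 13 were tested, 2 with a positive and 11 with a negative difference, and their median was -0.15. Over all genes tested 4507 were positive and 4380 negative, and the split of these receptors was not tested. Flt3, the receptor kinase that marks multipotent progenitors and is related to Csf1r and Kit, was the most abundant of these and the 1 past an unadjusted p of 0.05 in limma, though not in the exact test. Within replicate numbers 2 to 4 its difference was -0.16, and within 5 to 7 it was -0.85. Its signal ran from 363 through 464 to 646 under the WT label and from 178 through 351 to 523 under the KO label. The 3 lowest values, in KO replicates 5, 6 and 7, were below every WT library, and the other KO libraries lay inside the WT span. The difference was -0.51 (95% interval -0.997 to -0.020, limma p = 0.042, adjusted p = 0.9996, exact permutation p = 0.063). Without 1 library the limma p was above 0.05 in 8 of 12 fits and reached 0.108 without KO replicate 6, with -0.32. The other 7 were without WT replicates 2 to 5 and 7 and without KO replicates 5 and 7. With the term for replicate numbers 2 to 4 against 5 to 7 the unadjusted limma p was 0.015. It was 0.058 without the trend and 0.073 with quantile scaling. Kit, the related receptor by which the cells were sorted, had a difference of 0.050 (95% interval -0.25 to 0.35).

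The 7 other JAK and STAT genes were all tested, with a median of -0.032 and 0 past an unadjusted p of 0.05 in limma. Jak1, a kinase of interferon and IL-6 family receptors, ran from 29.4 through 31.1 to 38.3 under the WT label and from 25.6 through 27.8 to 30.3 under the KO label. The KO library was the lower one in 6 of 6 replicate numbers, and the groups overlapped. The share of all genes tested with 6 of 6 in 1 direction was not computed. Its difference was -0.21 (95% interval -0.51 to 0.097, exact permutation p = 0.011, unadjusted limma p = 0.168, adjusted p = 0.9996), and -0.069 and -0.34 within replicate numbers 2 to 4 and 5 to 7. Jak3, the most abundant of them, had a difference of -0.018 (95% interval -0.42 to 0.38), and the sign turned in 6 of the 12 fits that left out 1 library. Of 29 inhibitors and adaptors 25 were tested, 13 with a positive and 12 with a negative difference, and 0 passed. Ptprc, which encodes the phosphatase CD45, was the most abundant (difference 0.041, 95% interval -0.25 to 0.33). Of 16 STAT target genes 12 were tested, with a median of 0.092 and 0 past an unadjusted p of 0.05. Myc, the most abundant, had a difference of 0.073 (95% interval -0.22 to 0.37).

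Of 10 myeloid transcription factor genes 8 were tested, with a median of -0.14. Runx1 was the most abundant, with a difference of 0.016 (95% interval -0.45 to 0.48). Ets1, an ETS factor better known in lymphoid cells, was the 1 past an unadjusted p of 0.05 in limma, though not in the exact test. It ran from 14.0 through 21.3 to 40.4 under the WT label and from 4.17 through 11.8 to 29.2 under the KO label. With KO replicate 4 left aside, the KO libraries lay below every WT library. The difference was -1.003 (95% interval -1.84 to -0.17, limma p = 0.022, adjusted p = 0.9996, exact permutation p = 0.054), and its p was 0.058 without WT replicate 2, 0.053 without KO replicate 6 and 0.055 without KO replicate 7. Within replicate numbers 2 to 4 it was -0.46, and within 5 to 7 it was -1.54. Cbfb, the partner of RUNX factors, ran from 203 through 254 to 285 under the WT label and from 181 through 211 to 239 under the KO label, with overlapping groups (difference -0.23, 95% interval -0.50 to 0.039, exact permutation p = 0.045, unadjusted limma p = 0.088, adjusted p = 0.9996).

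**Figure D5:**
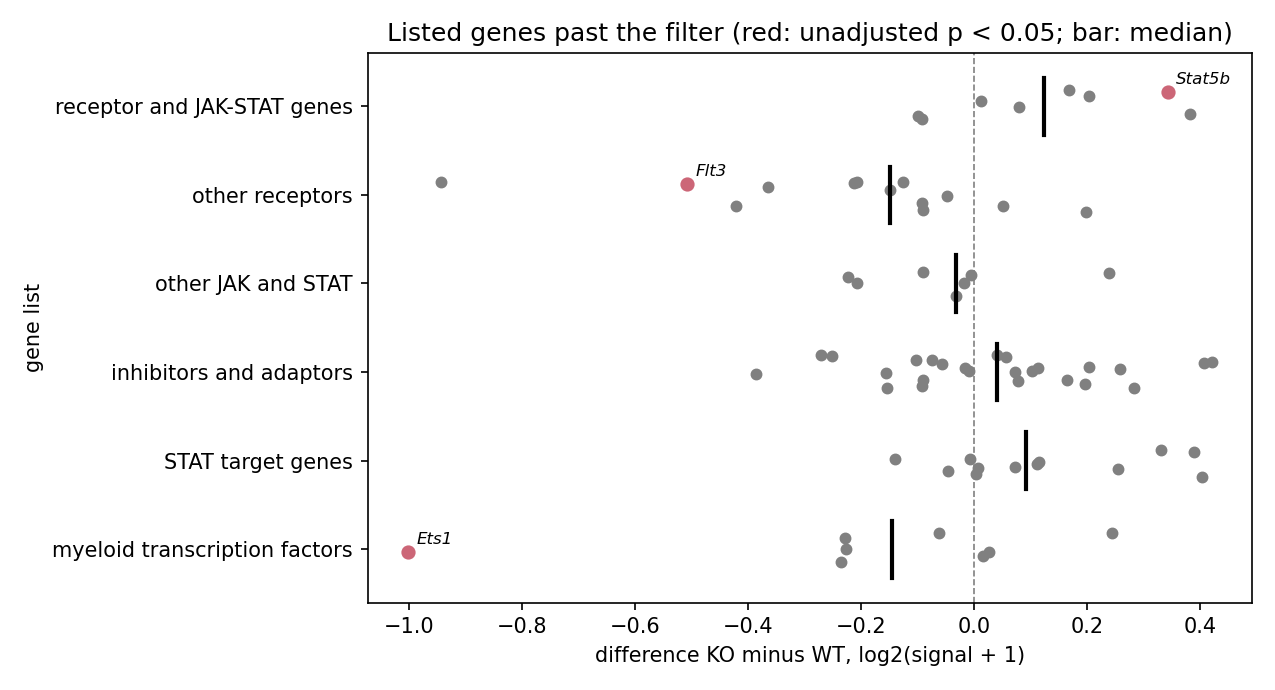
Difference KO minus WT on the log2(signal + 1) scale for the tested genes of the 10 and of each pathway list (marker lists not drawn), with medians as bars and genes with an unadjusted p under 0.05 in red. Stat5b (0.34), Flt3 (-0.51) and Ets1 (-1.003) are marked, and the other genes run from -0.94 to 0.42.

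Markers of other cells were compared beside these genes. Of 16 granulocyte and monocyte markers 8 were tested and 0 passed an unadjusted p of 0.05, and their summed signal, mostly Mpo, ran from 477 to 2422 under the WT label and from 596 to 2639 under the KO label. Of 12 lymphoid markers 4 were tested and 0 passed, with sums of 190 to 638 and of 127 to 718, mostly Dntt. Of 12 erythroid and megakaryocyte markers 3 were tested and 1 passed, Itga2b, with sums of 126 to 237 and of 151 to 343. Of the 3, 2 had a positive and 1 a negative difference. The negative one was Car2, the most abundant (difference -0.14, exact permutation p = 0.418). Of all genes tested, 1.98% passed and were higher under the KO label. A list of 3 genes is too small to compare with that share. Itga2b, named after its value was seen, was higher under the KO label (difference 0.72, exact permutation p = 0.0043, unadjusted limma p = 0.0060, adjusted p = 0.9996). Of 10 LSK markers 9 were tested and Flt3 alone passed, with sums of 1726 to 2240 and of 1383 to 2076, and Cd34 was the most abundant. The part of these markers in the values of Stat5b, Flt3 or Ets1 was not tested.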

How the data were processed

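Total RNA of sorted LSK cells was enriched for mRNA and made into libraries with the CATS RNA-seq kit by the authors. The submitters' processing notes name kallisto, and its version, the mouse genome build and the strand setting are not given in the sources used here. The authors deposited a signal for each gene in each library, read here, from the column names and values, as estimated counts scaled by a factor per library. All 12 columns were matched to libraries by their titles, and 0 columns were left unused. Genotypes came from the labels.

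Values were used without rescaling. Whole reads could not be recovered (10.4% to 11.4% of the values above 0 were whole multiples of the commonest low value, within 0.001), so count tests were not used, and read numbers are approximate. The 8887 genes whose signal averaged 10 or more were tested on log2(signal + 1) with limma 3.58.1 in R 4.3.3 (two-sided moderated test with trend and no covariate, adjusted by Benjamini-Hochberg). Single genes also had two-sided exact permutation tests of 6 against 6, whose smallest p is 0.0022. The fit was tested on simulated data. Alternatives were pseudocounts of 0.5 and 5, no filter or a mean of at least 50, median-of-ratios and quantile scaling, no trend, a replicate block, each library left out, and both WT replicate 3 and KO replicate 7 left out.

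The 10 genes and all lists were chosen with earlier results of these data known. Genes outside the 10 were named where they had an unadjusted p under 0.05 in a pathway list, had the highest mean signal of a list, or were the 3 most like the gene with the smallest exact p. A term for replicate numbers 2 to 4 against 5 to 7 was added after seeing the data. Itga2b, Jak1, Cbfb, Fos, Il7r and the genes used to check cell identity were named outside this rule. Positions are those of GENCODE M21, in which 35929 of the 35999 names were found.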

Additional observations from a re-analysis of the deposited data

Results flagged for a closer look

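Values of single libraries that stand apart from the 5 others under the same label were sought with Dixon's ratio. Among 52 sets of 6 libraries, 12 exceeded its critical value. For independent sets of normally distributed values about 1 in 20 groups (2.6 here) would exceed it. The ratio was taken on the linear signal, and the sums and shares reuse the values of single genes. The 12 can therefore not be tested against 2.6. Causes were not tested.

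Among the receptors, Csf1r had a signal of 34.2 in WT replicate 6 (11.8 to 17.3 in the others) and of 70.3 in KO replicate 4 (12.8 to 27.2). Csf2ra had 34.4 in WT replicate 2 (9.71 to 14.2). Csf2rb had 33.5 in KO replicate 7 (18.5 to 21.9), and the sum of Csf2rb and Csf2rb2 was 55.3 there (22.2 to 34.4). Socs2 had 7.11 in WT replicate 3 (0 to 2.13). Stat5a held 29.3% of the sum of Stat5a and Stat5b in WT replicate 7 (41.2% to 45.6%), the WT library with the highest signal of Stat5b.

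Among the other genes, Fancg had 24.1 (4.76 to 9.40) and Ptprc 658 (397 to 483) in WT replicate 7. Ets1 had 29.2 in KO replicate 4 (4.17 to 13.03), the library with the high Csf1r. Mpo had 1650 in KO replicate 6 (318 to 754), and Car2 had 164 in KO replicate 7 (92.1 to 108).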

How the results depend on the processing

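The filter moved the count of genes with an unadjusted p under 0.05 most, from 326 to 836 without a filter and to 91 under a minimum mean of 50, and leaving out 1 library gave 276 to 385. Of the 10 genes, 0 in place of 1 passed without the trend and without both WT replicate 3 and KO replicate 7, and 0 to 1 when 1 library was left out. The sum of Csf2rb and Csf2rb2 then differed by -0.00025 to 0.33 and the share of Csf2rb by -11.7 to -5.43 percentage points, and the sum of Stat5a and Stat5b by 0.19 to 0.30 and the share of Stat5a by -6.74 to -3.46. Genes with small differences changed sign: Csf2rb had -0.00039 with median-of-ratios scaling, -0.0066 with quantile scaling and -0.17 without both libraries, where Jak3 had 0.053 and Mpo -0.044. With 1 library left out, the differences ran from -0.22 to 0.15 for Csf2ra, -0.11 to 0.19 for Csf2rb, -0.23 to 0.059 for Stat3, -0.15 to 0.091 for Jak3, -0.014 to 0.13 for Ptprc, -0.093 to 0.13 for Runx1, -0.015 to 0.11 for Kit, -0.20 to 0.37 for Mpo and -0.36 to 0.067 for Fancg, and the cause was not tested. Genes below a filter have no limma value under it. Csf2rb2, Socs2 and Fancg were not run with quantile scaling or without trend.

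The labels give both genotypes the replicate numbers 2 to 7 but no shared litter or day. Each library was taken as its deviation from the mean of its label. Libraries with the same number then correlated at 0.086 to 0.36, below 0.1 for numbers 4 and 7. Their mean r was 0.20, against -0.039 between libraries with different numbers. Of the WT libraries 5 of 6, and of the KO libraries 4 of 6, correlated best with their own number. Libraries of the same number were thus more alike on average. The main test did not take the numbers as pairs, since r was below 0.1 for numbers 4 and 7, and so leaves this shared variation in. With the replicate block, 476 genes in place of 326 had an unadjusted p under 0.05 and 0 an adjusted one. Of the 10 genes, 1 passed, Stat5b with an unadjusted limma p = 0.013, against an exact sign-flip permutation p of 0.031 (difference 0.34, higher under the KO label in 6 of 6 numbers). Flt3 and Ets1, which passed without the block, had an unadjusted limma p of 0.010 and 0.025 with it. Dntt also passed with the block (unadjusted limma p = 0.025 against 0.19 without it), and Il7r was lower under the KO label in 6 of 6 numbers (exact sign-flip p = 0.031). With the term for numbers 2 to 4 against 5 to 7, 363 genes and 1 of the 10 passed, and 0 genes had an adjusted p under 0.05. The unadjusted limma p with this term was 0.015 for Flt3 and 0.014 for Ets1. Depth limits what can be seen of Csf2rb2 and Socs2.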
